A study of Drosophila melanogaster with 25 samples.

Results

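The gene glass (gl) of Drosophila melanogaster was followed over 25 Affymetrix Drosophila Genome 2.0 arrays of third-instar larval imaginal discs, in 8 groups. It was found as every probe set that the platform annotation gives to gl, which is 1 probe set among 18769 (18952 with the array's own controls) and 1 gene among the 11982 that had a probe set to themselves. The suffix of its name marks probes shared by several transcripts of 1 gene, and the RefSeq gene table lists 3 gl transcripts, so the isoforms could not be separated. The deposited values are log2 signals with a common lowest value of 6.91 (120.5 on the linear scale), called the floor here. Below it no level could be told from another.

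The sample titles set the groups: leg discs carrying UAS-ey in an ato mutant, UAS-ey leg discs, UAS-ey wing discs, antennal discs titled Uey, and wild-type eye, leg, wing and antennal discs, with 4 arrays for the eye discs and 3 for every other group. UAS-ey places eyeless (ey) under GAL4 control. No label names the driver of GAL4 or the allele of ato, or says what Uey stands for, and Uey was read as the antennal counterpart of UAS-ey. The series text calls the samples biological triplicates, but nothing states how many larvae each sample pooled, so p-values measure the spread between these samples, which may be technical. The study asked which genes respond to Eyeless.

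Glass is a zinc finger transcription factor that acts late in eye specification. Eyeless, a Pax6 protein, and the retinal determination genes eyes absent (eya) and sine oculis (so) give disc cells an eye fate. Behind the morphogenetic furrow, the proneural gene atonal (ato) founds the R8 photoreceptor, which recruits the other cells of each ommatidium. gl is transcribed in cells at and behind the furrow, and gl mutants fail to make mature photoreceptors.

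Several measures of whole arrays bear on the values below. Array medians lay between 7.54 and 7.86, and 25.2% to 33.7% of an array's probe sets sat at the floor. The ey probe set gave 12.43 to 12.60 on the ato-mutant UAS-ey leg arrays, 10.36 to 11.02 on the UAS-ey leg arrays and 11.68 to 12.34 on the wild-type leg arrays. It thus did not report a gain of ey in UAS-ey leg discs. By limma this probe set was also called lower in wild-type eye discs than in wild-type leg and wing discs. Whether its probes lie within the transgene is not given, so it does not check the labels. The 3 ato-mutant arrays stood apart. On them the gap between the 3' and 5' GAPDH control signals was 2.76 to 3.29, against 2.01 to 2.27 on the UAS-ey leg arrays. The signal of the phe control (a bacterial transcript) was 10.53 to 11.15 on the ato-mutant arrays, 8.37 to 8.65 on the UAS-ey leg arrays and 10.37 to 10.89 on the wild-type leg arrays. On the UAS-ey wing arrays it was 10.66 to 11.11. The UAS-ey leg range overlapped none of these, so fits with phe as a covariate could hardly separate it from group there. With phe the SE of gl went from 0.17 to 0.31 for UAS-ey against wild-type leg and to 0.34 for ato-mutant against UAS-ey leg discs. Whether a call lost in these fits reflects phe or group cannot be told. Of 7 disc identity genes, 4 are given here with their levels, chosen after their values were seen. Antp, a Hox gene of the thorax, was at the floor on all eye arrays and averaged 11.32 ± 0.19 (SD, n = 3) in wild-type leg discs. Dfd, a Hox gene of the head, averaged 11.24 ± 0.03 (SD, n = 3) in wild-type antennal discs and was at the floor on all wild-type leg and wing arrays, but averaged 7.06, above the floor, on the ato-mutant arrays. vg, a gene of wing fate, averaged 9.59 ± 1.29 on the ato-mutant arrays and 7.30 ± 0.67 on the UAS-ey leg arrays, beside 8.71 ± 0.21 in wild-type leg and 12.40 ± 0.08 in wild-type wing discs (SD, n = 3 each). nub, another wing gene, averaged 9.99 on the ato-mutant arrays and 10.50 on the UAS-ey leg arrays, beside 10.87 in wild-type leg and 11.97 in wild-type wing discs. In ato-mutant against UAS-ey leg discs nub (-0.51), Scr (-0.67) and ss (-1.15) were lower, at a limma adjusted p under 0.05. vg (2.29) and Antp (0.72) were higher by the same test. Dll differed by -0.56 (limma adjusted p = 0.0549).

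gl was high in eye discs, at the floor in the other wild-type discs, above the floor in every disc type that carried ectopic ey, and back at the floor in ato-mutant leg discs. Its log2 signal was at 6.91 on all 3 ato-mutant UAS-ey leg arrays. It was 9.97, 9.89 and 10.27 on the UAS-ey leg arrays, 8.09, 9.18 and 8.81 on the UAS-ey wing arrays, and 8.90, 8.95 and 8.99 on the Uey antennal arrays. The eye arrays gave 12.28, 12.14, 12.01 and 11.87. All 9 arrays of wild-type leg, wing and antennal discs were at 6.91. No array of the eye group or of a group with ectopic ey overlapped these 9, apart from the ato-mutant arrays, which were all at the same floor value.

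**Figure D1:**
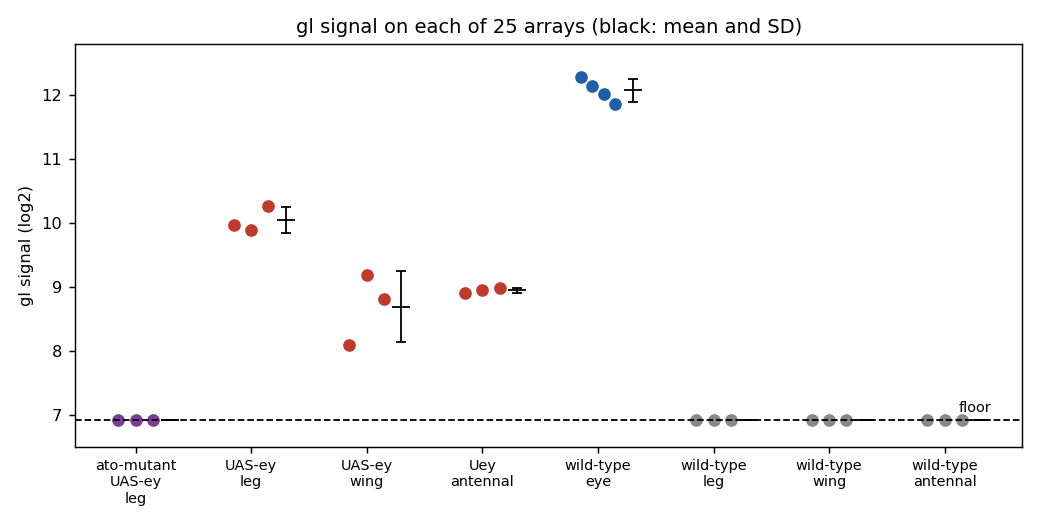
Log2 signal of the gl probe set (vertical axis) on each of the 25 arrays, by group, with the group mean and SD in black and the floor as a dashed line. The ato-mutant UAS-ey leg arrays and the wild-type leg, wing and antennal arrays all lie on the floor at 6.91, the eye arrays lie between 11.87 and 12.28, and the UAS-ey and Uey arrays lie between 8.09 and 10.27.

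In eye discs gl averaged 12.08 ± 0.18 (SD, n = 4), which is 4340 on the linear scale. That was 5.16 above wild-type leg, wing and antennal discs on the log2 scale (95% interval 4.82 to 5.51), or at least 35.8-fold, since the other side is the floor. Limma's adjusted p was 2.5e-14 against leg, 2.6e-14 against wing and 3.1e-14 against antennal discs. These comparisons were rich in calls: at an adjusted p under 0.05, 16.3% of all probe sets differed between eye and leg discs, 29.6% between eye and wing discs and 10.6% between eye and antennal discs. The exact permutation test over arrays gave p = 0.0571 each time, the smallest that 4 arrays against 3 allow.

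Wild-type antennal discs are given here because some genes that act in the eye were above the floor there while gl was at it. Their ato signal was 11.05, 11.05 and 11.00, against a wild-type eye range of 11.32 to 11.40. The difference in ato, eye minus antennal, was 0.34 (SE 0.33, limma adjusted p = 0.818). No eye array overlapped an antennal array in ato. The SE pools the spread of all groups, among them the ato-mutant arrays, whose ato signals lay far apart. The p-value therefore does not show that ato was equal in eye and antennal discs. toy, the Pax6 gene that acts upstream of ey, averaged 12.92 ± 0.11 in eye discs (SD, n = 4) and 11.53 ± 0.07 in wild-type antennal discs (SD, n = 3). eya averaged 12.67 ± 0.04 in eye discs (SD, n = 4) and 9.44 ± 0.12 in antennal discs (SD, n = 3), and the difference of 3.24 (SE 0.22) passed the test. ato and toy were thus well above the floor in antennal discs, where gl was not detectable. ato also averaged 9.06 in wild-type leg discs, so its signal alone does not mark eye fate.

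Ectopic ey was accompanied by gl in each disc type. In leg discs, the UAS-ey mean of 10.04 ± 0.20 (SD, n = 3) stood 3.13 above wild type (95% interval 2.76 to 3.50), at least 8.76-fold, with a limma adjusted p of 6.7e-10. In that comparison 9.02% of all probe sets were called higher and 10.3% lower. In wing discs, the UAS-ey mean of 8.69 ± 0.56 (SD, n = 3) stood 1.78 above wild type (95% interval 1.41 to 2.15), at least 3.43-fold, with an adjusted p of 2.2e-06, where 2.94% of probe sets were called higher and 2.38% lower. In antennal discs, the Uey mean of 8.95 ± 0.04 (SD, n = 3) stood 2.03 above wild type (95% interval 1.67 to 2.40), at least 4.09-fold, with an adjusted p of 1.8e-07, where 7.04% of probe sets were called higher and 4.46% lower. The exact permutation test gave p = 0.1 for each, the smallest that 3 arrays against 3 allow.

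The wing call depended on the estimate of spread. Limma's residual SD for gl was 0.22 over all 8 groups, 4 of which were at the floor on every array and added no spread, while the SD of the UAS-ey wing arrays alone was 0.56. With only UAS-ey and wild-type wing arrays in the fit, the same 1.78 had an adjusted p of 0.139. In bulk discs, fewer cells with gl and less gl RNA per cell cannot be told apart.

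gl in the discs with ectopic ey stayed below the eye level. In UAS-ey leg discs it reached 24.5% of the eye signal (95% interval 19.3% to 31.0%), with a difference of -2.03 on the log2 scale (adjusted p = 2.6e-08), where 18.7% of probe sets differed in either direction. In UAS-ey wing discs it reached 9.59% of the eye signal (95% interval 7.55% to 12.2%), with a difference of -3.38 (adjusted p = 1.5e-11), where 35.6% of probe sets differed. In Uey antennal discs it reached 11.4% of the eye signal (95% interval 9.01% to 14.5%), with a difference of -3.13 (adjusted p = 4.5e-11), where 21% of probe sets differed. All 3 groups lay below every eye array, and the exact permutation p was 0.0571 for each.

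The discs also differed among themselves. gl in UAS-ey leg discs was 1.35 above UAS-ey wing discs (95% interval 0.98 to 1.72), a 2.55-fold difference with an adjusted p of 3.9e-05, where 22.6% of probe sets differed in either direction. It was 1.10 above Uey antennal discs (95% interval 0.73 to 1.46), a 2.14-fold difference with an adjusted p of 4.1e-04, where 6.73% of probe sets differed. UAS-ey wing minus Uey antennal discs was -0.25 (95% interval -0.62 to 0.11, adjusted p = 0.353). The arrays of those last 2 groups overlapped, and 25.1% of probe sets differed there. The exact permutation p was 0.1 for both leg differences and 0.7 for wing against antennal.

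The resulting order of gl levels was eye, UAS-ey leg, and then Uey antennal and UAS-ey wing, which did not differ beyond their spread, with 4 groups at the floor. Only-2-group fitting took the leg against wing difference to an adjusted p of 0.066, and adding the phe signal as a covariate reduced it to 1.12 (adjusted p = 0.263). UAS-ey wing replicate 1 weighed on the wing against antennal difference. Without it the difference was 0.05 (adjusted p = 0.989), and without UAS-ey wing replicate 2 it was -0.50 (adjusted p = 0.0279).

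**Figure D2:**
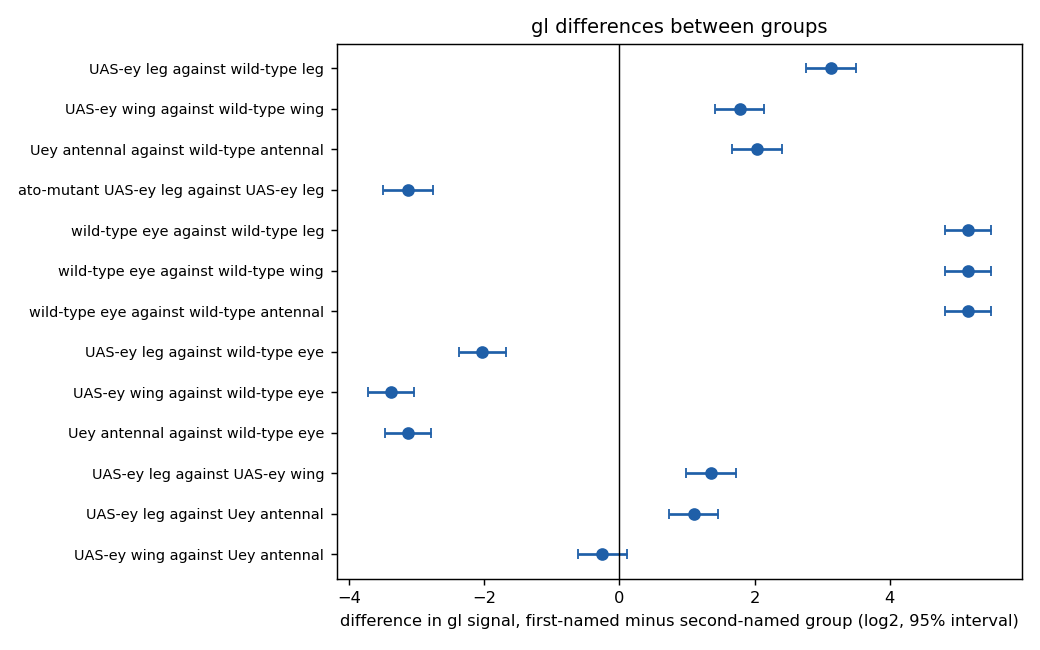
Differences in gl log2 signal, first-named minus second-named group, with limma's 95% intervals, for the 13 comparisons in which at least 1 group was above the floor. Where a group sat at the floor the size is a lower bound, and the interval of UAS-ey wing against Uey antennal discs is the only one shown that includes 0.

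ato-mutant UAS-ey leg discs lacked a detectable gl signal. All 3 arrays were at 6.91, against 9.97, 9.89 and 10.27 in UAS-ey leg discs. The difference of -3.13 (SE 0.17, 95% interval -3.50 to -2.76) is at least 8.76-fold lower, with a limma adjusted p of 7.2e-10 and an exact permutation p of 0.1. In that comparison 9.03% of probe sets were called lower and 14.5% higher. With the phe signal as a covariate the gl difference was -2.91 (adjusted p = 1.2e-04). Against wild-type leg discs both groups were at the floor, so no fold is given, while 12.3% of probe sets were called higher and 8.87% lower.

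Some markers of other tissues also differed in ato-mutant against UAS-ey leg discs, where 14.5% of all probe sets were called higher and 9.03% lower. All 9 haemocyte markers were higher in ato-mutant UAS-ey leg discs, with a summed linear signal of 13848 to 33261, against 5662 to 6502 in UAS-ey leg discs. srp, the GATA factor of blood and fat body, was at the floor in the UAS-ey leg discs, and no haemocyte marker was at the floor on all ato-mutant arrays. The 4 measured fat body markers summed to 32508 to 45437 in the ato mutants, against 2123 to 9936 in UAS-ey leg discs, and 2 of them were called higher. Of 10 salivary gland markers 8 were called higher, summing to 9678 to 29538 in the ato mutants, against 2820 to 3814 in UAS-ey leg discs. None of the salivary markers was at the floor on all ato-mutant arrays, while ng1 and ng2 were at it on all UAS-ey leg arrays. In wild-type leg discs the sums were 6892 to 10276 for haemocyte, 4197 to 8119 for fat body and 11075 to 17590 for salivary gland markers. The salivary sums of wild-type leg discs thus lay within the ato-mutant range. Against wild-type leg discs, ng1, ng2 and ng3 were higher in the ato mutants (4.98, 4.93 and 4.65), and Sgs3 differed by -1.25 (limma adjusted p = 0.0438). Glial and muscle precursor markers were mixed in ato-mutant against UAS-ey leg discs, and their summed signals overlapped. repo (1.15), moody (1.17), Him (0.72) and zfh1 (0.79) were called higher, and loco (-0.38), kirre (-0.82) and htl (-0.46) lower. Another kirre probe set differed by 0.14. The part of these tissue markers in the gl result was not tested.

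The ato probe set did not vanish with the label. It read 7.85, 8.43 and 10.16 on the ato-mutant arrays, against 10.57, 10.60 and 10.47 in UAS-ey leg discs, a difference of -1.73 (SE 0.35, adjusted p = 0.00145). With only these 2 groups in the fit the adjusted p was 0.191, and with the phe covariate the difference was -1.20 (adjusted p = 0.604). A mutant allele can leave its RNA in place, and the allele is not given, so this signal does not check the label. Replicate 3 was the array closest to the UAS-ey leg discs in ato, and gl was at the floor on it as on the other two.

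The retinal determination genes, which act upstream of gl or beside it, set the first contrast. Of the 9 genes listed, 8 had an unshared probe set and were measured. In UAS-ey leg discs 5 were called higher than in wild type and 1 lower, with a median change of 0.70, where the median over all probe sets was 0. The shares over all probe sets were 9.02% higher and 10.3% lower. eya, a coactivator and phosphatase, averaged 12.07 in UAS-ey leg discs and 8.15 in wild-type leg discs, a rise of 3.91 (SE 0.23, adjusted p under the threshold in the fit and in each of its alternatives). so, the homeodomain partner of Eya, was 1.04 higher (SE 0.20, adjusted p = 0.00103). That call did not survive the phe covariate (0.90, adjusted p = 0.23). eyg, a Pax gene of eye growth, was the smallest of the 5 at 0.35, and its call was lost with the phe covariate (adjusted p = 0.831), with only these 2 groups in the fit (0.0738), with the replicate block (0.0586) and without any of the 6 arrays but UAS-ey leg replicate 3 (0.0591 to 0.167). Optix and toy were at the floor in wild-type leg discs, as gl was, and were at least 5.20-fold and at least 3.62-fold higher in UAS-ey leg discs. The 1 gene called lower was ey itself, by the probe set discussed above, and not with the phe covariate (-0.23, adjusted p = 0.954).

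In ato-mutant UAS-ey leg discs this list did not follow gl. Against UAS-ey leg discs 4 members were called higher (toy, ey, Optix and tsh) and 2 lower (eya and dac), with a median change of 0.22. The shares over all probe sets were 14.5% higher and 9.03% lower. With the phe covariate each of these 6 calls was lost (adjusted p 0.112 for Optix to 0.735 for ey), and with only these 2 groups in the fit those of Optix, toy and tsh were lost too (0.0809 to 0.142). so averaged 9.64 ± 0.65 in the ato mutants and 9.68 ± 0.11 in UAS-ey leg discs (SD, n = 3 each), a difference of -0.04 (SE 0.20, adjusted p = 1). eya read 10.06, 10.86 and 11.70 in the ato mutants, against 12.04, 12.07 and 12.09 in UAS-ey leg discs, and its difference of -1.20 had an adjusted p of 0.00108, or 0.186 with only these 2 groups in the fit. Without ato-mutant UAS-ey leg replicate 1 it was -0.79. Against wild-type leg discs, eya in the ato mutants was still 2.72 higher (SE 0.23) and so 0.999 higher (SE 0.20, adjusted p = 0.00123), though the so call was lost with only these 2 groups in the fit (adjusted p = 0.206). Optix was at least 13.1-fold and toy at least 6.03-fold higher. eya, so, Optix and toy were thus above wild-type leg discs in the ato mutants by limma, while gl was at the floor on every array of both groups.

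Of 13 genes of the furrow and of R8 specification, 9 were measured. Against wild-type leg discs, 3 were called higher in UAS-ey leg discs and 0 lower by limma (1 at an unadjusted p under 0.05). The shares over all probe sets were 9.02% higher and 10.3% lower. The 3 were ato (1.48, SE 0.35, adjusted p = 0.00553), the homeobox gene rough (ro), and E(spl)mdelta-HLH, a repressor that responds to Notch. The ato call was lost with the phe covariate (1.02, adjusted p = 0.567). In ato-mutant against UAS-ey leg discs 4 were called lower, namely ato, senseless (sens), ro and E(spl)mdelta-HLH, and 1 higher (da). The shares over all probe sets were 9.03% lower and 14.5% higher there. The da difference of 0.35 was not called with only these 2 groups in the fit (adjusted p = 0.0572), with centred medians (0.22, 0.0785), with the phe covariate (0.12, 1) or without UAS-ey leg replicate 2 (0.28, 0.0877). ro read 7.10, 7.11 and 7.08 in the ato mutants, against 8.09, 7.86 and 7.79 in UAS-ey leg discs, a difference of -0.81 (SE 0.08, adjusted p = 1.6e-06). sens, which acts with ato to keep R8 identity, differed by -1.18 (SE 0.15) between ato-mutant and UAS-ey leg discs, and by -1.38 (SE 0.15) between ato-mutant and wild-type leg discs. In leg discs sens is also a gene of sensory organ precursors.

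Of 21 genes of photoreceptor and cone cell fate, 18 were measured. In eye discs 13 of them were higher than in wild-type leg discs and 1 was lower, where 6.6% of all probe sets were called higher and 9.75% lower. In UAS-ey leg discs 4 were higher than in wild type and 0 lower by limma (4 at an unadjusted p under 0.05), with a median change of 0.12. The shares over all probe sets were 9.02% higher and 10.3% lower there. lozenge (lz), a Runx factor of photoreceptor and cone precursors, read 8.84, 8.61 and 8.74 in UAS-ey leg discs, while all wild-type leg arrays were at the floor. Its rise was at least 3.52-fold (adjusted p = 8.9e-05), and 1.64 on the log2 scale with the phe covariate (adjusted p = 0.0723). sevenless (sev), the receptor that selects R7, was 0.66 higher (SE 0.10, adjusted p = 2.0e-04). That call too was lost with the covariate (0.62, adjusted p = 0.0877). argos (aos) and anterior open (aop), both of the EGF receptor and Ras pathway, were the other two called higher, and the aos call was lost with the covariate as well (0.47, adjusted p = 0.422).

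In the ato mutants 8 of these 18 were called lower than in UAS-ey leg discs and 5 higher, with a median change of -0.10. The shares over all probe sets were 9.03% lower and 14.5% higher. lz was at the floor on all 3 ato-mutant arrays, as gl was, and so at least 3.52-fold lower (adjusted p = 6.3e-05). sev differed by -0.76 (SE 0.10), and phyllopod (phyl), which links Ras signalling to R7 fate, by -1.28 (SE 0.11). The Bar homeobox genes of R1 and R6, B-H1 and B-H2, differed by -0.83 and -0.74. The 5 called higher were svp, pros, sina, ct and sv, and the sv call was lost without ato-mutant UAS-ey leg replicate 1 (adjusted p = 0.0609). With only these 2 groups in the fit the counts were 5 lower and 2 higher, and with the phe covariate 1 lower and 0 higher. With that covariate the lz difference was -1.61 (adjusted p = 0.175).

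**Figure D3:**
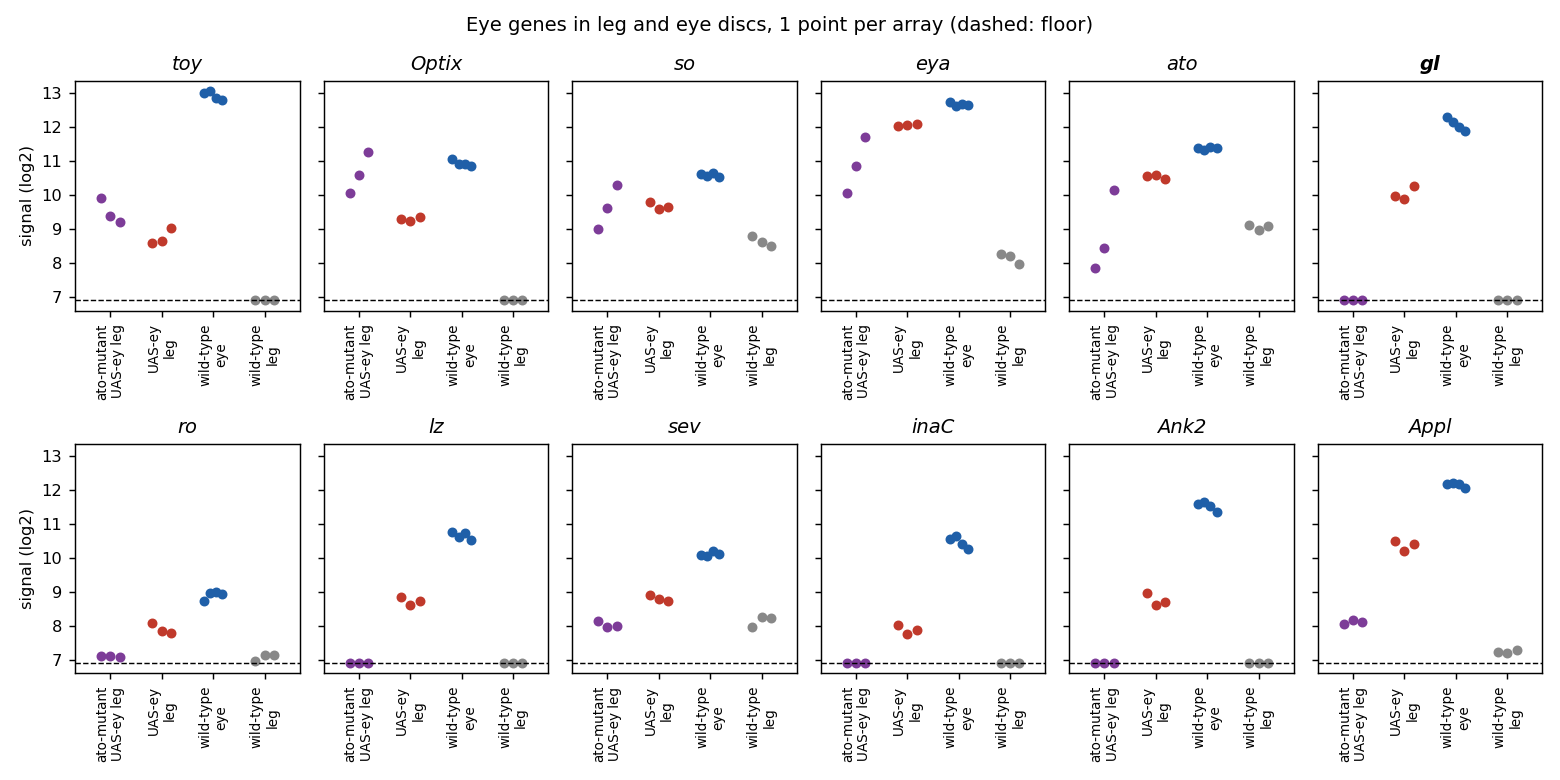
Log2 signal of 12 genes on each ato-mutant UAS-ey leg, UAS-ey leg, wild-type eye and wild-type leg array, 1 point per array, with the floor dashed. gl, lz, inaC and Ank2 lie on the floor in both ato-mutant UAS-ey and wild-type leg discs, while toy, Optix, so and eya lie above wild-type leg discs on all 3 ato-mutant arrays.

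Of 22 genes of mature photoreceptors, many of them altered in gl mutants, 13 were measured, and the opsin genes were not among those. In UAS-ey leg discs 1 was called higher (inaC, the eye-enriched protein kinase C of phototransduction) and 2 lower (chp and Galphaq), with a median change of -0.06. Over all probe sets 9.02% were called higher and 10.3% lower, so these counts do not set the list apart. inaC read 8.02, 7.75 and 7.88 in UAS-ey leg discs, while wild-type leg discs were at the floor, and the ato-mutant arrays were at it too. Its rise was at least 1.96-fold (adjusted p = 0.00133), and 0.74 on the log2 scale with the phe covariate (adjusted p = 0.334). chaoptin (chp), a surface protein of photoreceptors, averaged 9.55 in UAS-ey leg discs and 11.31 in wild-type leg discs, a difference of -1.76 that the phe covariate reduced to -0.58 (adjusted p = 0.54). The probe sets of Galphaq, a G protein subunit of phototransduction, disagreed. The one used differed by -0.97, a call lost with only these 2 groups in the fit (adjusted p = 0.0923) and with the phe covariate (0.171), while another averaged 8.83 in UAS-ey leg discs, with all wild-type leg arrays at the floor. In ato-mutant against UAS-ey leg discs chp and oc went the other way from inaC. chp differed by 2.21 (SE 0.27, adjusted p = 1.5e-05), or 0.83 with the phe covariate (adjusted p = 0.42). oc differed by 1.03 (SE 0.11, adjusted p = 1.9e-06). In eye discs 3 of the 13 were higher than in wild-type leg discs (Pph13, inaC and oc), where 6.6% of all probe sets were.

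Of 14 pan-neuronal genes, 11 were measured. In UAS-ey leg discs 3 were higher than in wild type (Appl, Ank2 and nrv3) and 0 lower by limma (1 at an unadjusted p under 0.05), with a median change of 0.23. The shares over all probe sets were 9.02% higher and 10.3% lower. The nrv3 call held without UAS-ey leg replicate 2 (adjusted p = 0.0156) and was lost without any other of the 6 arrays (0.0563 to 0.124), with only these 2 groups in the fit (0.0709) and with the phe covariate (0.565). Appl, the fly's amyloid precursor protein homologue, averaged 10.37 ± 0.16 in UAS-ey leg discs and 7.24 ± 0.05 in wild-type leg discs (SD, n = 3 each), a rise of 3.12 (SE 0.25). In ato-mutant against UAS-ey leg discs Appl differed by -2.25 (SE 0.25, adjusted p = 4.4e-06), and Ank2, a neuronal ankyrin, was at the floor and at least 3.60-fold lower. The Ank2 call was lost with the phe covariate (-1.65, adjusted p = 0.0809), and another Ank2 probe set averaged 8.09 in the ato mutants and 7.78 in UAS-ey leg discs, with no overlap of arrays. Of the 11, 0 were called higher there by limma (1 at an unadjusted p under 0.05), where 14.5% of all probe sets were. elav, the common marker of neurons, averaged 9.92 ± 0.36 in the ato mutants and 10.06 ± 0.12 in UAS-ey leg discs (SD, n = 3 each), a difference of -0.14 (SE 0.25, adjusted p = 0.895).

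In wing discs, 5 of the 8 retinal determination genes were higher with UAS-ey than in wild type and 0 lower by limma, nor at an unadjusted p under 0.05. eya was 1.79 higher (SE 0.23), so 1.27 higher (SE 0.20) and dac 1.32 higher (SE 0.09). ato averaged 8.89 ± 0.38 with UAS-ey and 7.13 ± 0.07 in wild type (SD, n = 3 each), a difference of 1.75 (SE 0.35, adjusted p = 0.00452, or 0.0669 with only these 2 groups in the fit). lz, at least 2.02-fold higher, had an adjusted p of 0.0269, or 0.62 with only these 2 groups in the fit. The lz call held without UAS-ey wing replicate 1, where the change was 1.51, and was lost without any other of the 6 arrays (adjusted p 0.0615 to 0.11), with a change of 0.62 without UAS-ey wing replicate 2. Appl was 2.11 higher (SE 0.25, adjusted p = 1.9e-05, or 0.222 with only these 2 groups). The fate list held 3 called higher and 1 lower of 18, the furrow list 3 higher of 9, the later photoreceptor list 1 higher of 13 and the neuronal list 2 higher of 11. In these last 3 lists 0 were called lower by limma, and 1 furrow gene was lower at an unadjusted p under 0.05. Over all probe sets 2.94% were called higher and 2.38% lower in this comparison. With only these 2 groups in the fit, every call in these 4 lists was lost (adjusted p 0.0578 for E(spl)mdelta-HLH to 0.626 for inaC), and those of Optix and toy (0.333 and 0.201) among the retinal determination genes.

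In antennal discs, 4 of the 8 retinal determination genes were higher with Uey than in wild type and 1 (eyg) was lower. eya was 1.90 higher (SE 0.23), so 1.56 higher (SE 0.20), dac 1.43 higher (SE 0.09) and Optix 1.32 higher (SE 0.22). ato averaged 11.48 ± 0.02 with Uey and 11.03 ± 0.03 in wild type (SD, n = 3 each), a difference of 0.45 (SE 0.35, adjusted p = 0.614, or 4.2e-04 with only these 2 groups in the fit). Of the fate genes 6 of 18 were higher, among them lz (1.03, SE 0.26, adjusted p = 0.0129), which unlike gl was above the floor in wild-type antennal discs at 7.67. That lz call was lost without Uey antennal replicate 3 (adjusted p = 0.054) and without wild-type antennal replicate 3 (0.0653). The furrow list held 2 called higher and 2 lower of 9, the later photoreceptor list 1 higher of 13 and the neuronal list 3 higher of 11. In the fate, later photoreceptor and neuronal lists 0 were called lower by limma, and 1 later photoreceptor gene was lower at an unadjusted p under 0.05. Over all probe sets 7.04% were called higher and 4.46% lower in this comparison. With only these 2 groups in the fit 10 fate genes and 5 furrow genes were called higher. That fit called more over all 18769 probe sets too, 2231 higher and 1883 lower, against 1322 and 838 in the main fit.

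Probe sets that shared the on and off pattern of gl were few. In wild-type leg discs 5016 probe sets were at the floor on all arrays. Of these, 155 (0.826% of those tested) were above it on all UAS-ey leg arrays. Among those 155, 54 (gl with them) were back at the floor on all ato-mutant arrays, and 72 were above the floor on all ato-mutant arrays, Optix, toy and danr among them. Membership of the 54 does not mean a large rise, as Alg-2, in the 54, averaged 7.01 in UAS-ey leg discs. Membership of the 72 does not mean an unchanged level. danr averaged 8.60 in the ato mutants and 10.69 in UAS-ey leg discs, and toy 9.51 and 8.77. On all 4 eye arrays 28 of the 54 (51.9%) and 23 of the 72 (31.9%) were above the floor, while 11 of the 54 and 36 of the 72 were at it. Of all 5016 probe sets at the floor in wild-type leg discs, 159 (3.17%) were above it on all eye arrays. Over all tested probe sets that share was 63.8%. The eye arrays had no part in choosing the 54 and the 72. Tektin-C, in the 54, averaged 10.73, 10.78 and 10.78 in UAS-ey leg, UAS-ey wing and Uey antennal discs. It was at the floor in eye discs and the other wild-type discs. CG4210, in the 72, averaged 10.45 to 10.53 in the groups titled UAS-ey or Uey and was also at the floor in eye discs. Whether such patterns, or that of gl, reflect other genetic differences between the groups was not tested.

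Across all 25 arrays, 5 probe sets (0.0266% of those tested) were at the floor on exactly the arrays where gl was. They were gl, CG5653, Osi6, Osi4 and Lcp65Ad. CG5653, a gene without a name, averaged 11.75 in eye discs, 9.22 in UAS-ey leg discs, 8.45 in UAS-ey wing discs and 8.57 in Uey antennal discs. Osi4 and Osi6 belong to the Osiris family, and Lcp65Ad encodes a cuticle protein. Their eye averages were 8.82, 9.18 and 8.57. In UAS-ey leg, UAS-ey wing and Uey antennal discs Osi4 averaged 7.61, 6.99 and 7.24, and Lcp65Ad 7.47, 7.44 and 7.71. Osi6 averaged 8.13, 8.12 and 7.52 there. All of these lay closer to the floor than gl did in the same groups.

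Likeness of level was measured as Pearson's correlation with gl over the 8 group means, among 1563 genes whose means spanned at least 1 log2 unit and whose highest group mean was above the median of all values. The 10 most like gl were CG5653 (0.993), superdeath (0.980), Appl (0.977), Ank2 (0.974), Osi6 (0.971), CG13928 (0.970), twit (0.969), Mmp2 (0.967), lz (0.964) and Ipp (0.961). These are descriptions over 8 points that share arrays and the floor, and the eye group weighs on them. Without it, over 7 means, 5 of the 10 stayed among the top 10 and all 10 among the top 50, with correlations of 0.909 to 0.996. By Spearman's correlation 3 of the 10 were in the top 10.

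superdeath was at the floor on all wild-type leg and wing arrays, and averaged 12.22 in eye discs and 10.37 in UAS-ey leg discs. On the ato-mutant arrays superdeath fell to a mean of 7.20, near the floor of 6.91. It read 7.36, 6.92 and 7.31 there, so it stayed above the floor only narrowly, while gl was at it. Mmp2, a matrix metalloproteinase, read 6.95, 7.93 and 8.80 on the ato-mutant arrays, whose replicate 3 was the highest for Mmp2 as it was for ato, eya, so and Optix.

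**Figure D4:**
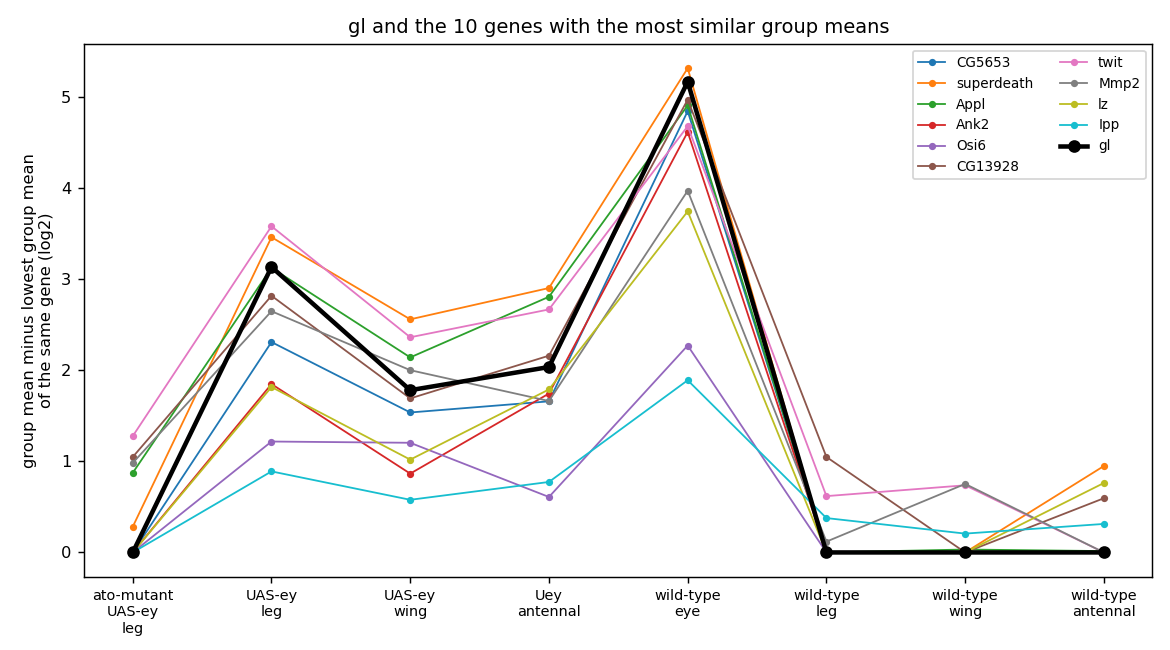
Group means of gl (thick black line) and of the 10 genes most like it, each as the log2 difference from its own lowest group mean (vertical axis), over the 8 groups. All peak in wild-type eye discs, and gl, CG5653, Osi6, Ank2 and lz are at their lowest in ato-mutant UAS-ey leg discs, on the floor.

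UAS-ey wing replicate 1 had less gl than the other two UAS-ey wing arrays and more ato. gl read 8.09 there, against 9.18 and 8.81, while ato read 9.32, against 8.75 and 8.60. lz read 6.95 on replicate 1, against 8.72 and 8.12, and Ank2 was at the floor there, against 8.23 and 8.19. eya, at 11.53, 11.57 and 11.51, and so, at 9.12, 9.13 and 9.01, showed no such drop.

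**Figure D5:**
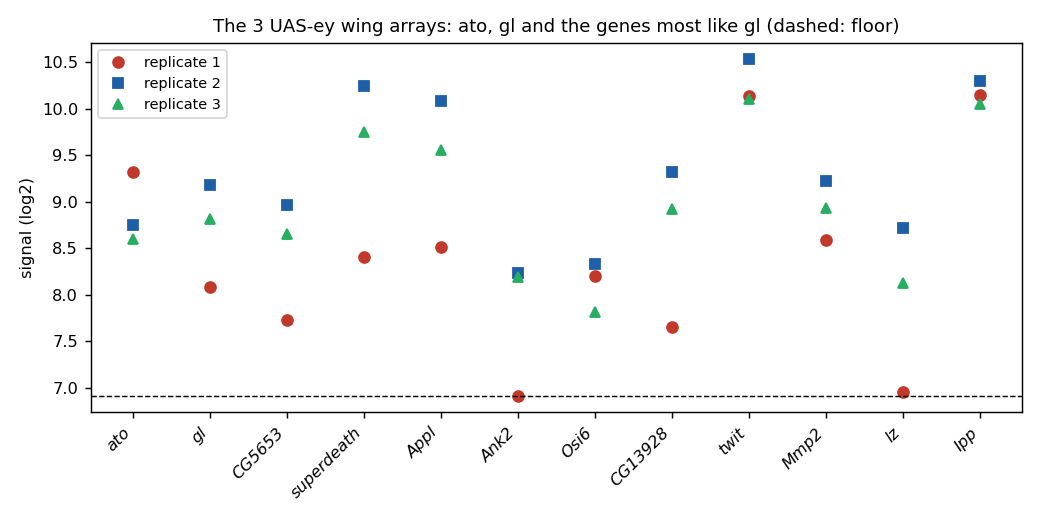
Log2 signal on the 3 UAS-ey wing arrays for ato, gl and the 10 genes most like gl, with the floor dashed. Replicate 1 is the highest of the 3 arrays for ato (9.32) and the lowest for gl (8.09), CG5653, superdeath, Appl, Ank2, CG13928, Mmp2 and lz.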

How the data were processed

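Per the labels' protocols, total RNA (100 ng per sample, Trizol) was amplified in 2 cycles, labelled with biotin and hybridised to 1 array per sample. The deposited values are log2 signals, 1 per probe set, as their range shows. How the authors summarised probes and scaled arrays, and with what software, is not given in the sources used here. The scaling was kept, and 183 control probe sets were left out.

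Groups were compared with limma (version 3.58.1, R 4.3.3): a mean per group over all 25 arrays, contrasts and eBayes, two-sided, Benjamini-Hochberg adjustment over 18769 probe sets, called at an adjusted p under 0.05. Exact permutation tests over arrays used SciPy (version 1.17.1). A fold against a group wholly at the floor is "at least", computed against the floor. Of several probe sets for a gene, the one with the highest mean stood for it; probe sets of 1 gene could disagree.

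Of the tested probe sets 13647 had 1 gene symbol, 402 several and 4720 none; only the first were named. The text names, per list and comparison, up to 6 called members with the largest change, plus ey, ato, eya, so, lz, chp and elav, and the 10 genes most like gl. A few outside that rule were chosen after their values were seen (sev and B-H2 in the ato mutants, danr, Tektin-C, CG4210, Alg-2, Osi4, Lcp65Ad, Antp, Dfd, vg, nub, Scr, ss, Dll). The called glial and muscle precursor markers are named too. The gene and the lists were chosen with earlier results of these data known. Replicate numbers are shared between groups. Same-numbered arrays deviated together in all pairs only in 2 comparisons. These were eye against antennal discs (correlations 0.140 to 0.154) and, more weakly, ato-mutant against UAS-ey leg discs (0.028 to 0.135). Alternatives were the 2 groups alone, centred medians, quantile normalization, no floor-only probe sets, the phe signal as covariate, a replicate block, and leaving out each array. No genome was used here. The number of arrays limits the precision.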

Additional observations from a re-analysis of the deposited data

Results flagged for a closer look

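The measured rise of gl differed between discs by a contrast of contrasts in the same limma fit. The UAS-ey leg rise minus the UAS-ey wing rise was 1.35 on the log2 scale (SE 0.25, adjusted p = 0.00477), and the UAS-ey leg rise minus the Uey antennal rise was 1.1 (SE 0.25, adjusted p = 0.0225). Each rise starts at the floor and is a lower bound, so these differences are those of the measured signals. Every wild-type array of these discs was at the floor, so each has the size of the direct difference given above and adds no separate result. The direct leg against wing call was lost with only the 2 groups compared (adjusted p = 0.066) and with the phe covariate (0.263).

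Among 48 genes whose 4 eye arrays were checked for an array apart from the others, salm, a zinc finger gene of photoreceptor fate, had 1. It read 10.51, 10.51, 10.69 and 10.48, and the gap of the highest to the next was 0.86 of the whole range. Chance alone sets about 1 group in 20 apart.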

How the results depend on the processing

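Of 90 values of the 14 gl differences under other settings, 86 kept their direction and their side of the threshold. The exceptions were the wing rise (1.78, adjusted p = 0.139) and leg minus wing (1.35, 0.066) with only the 2 groups compared, leg minus wing with the phe covariate (1.12, 0.263), and UAS-ey wing minus Uey antennal with centred medians (-0.45, 0.0361). Leaving out 1 array each, UAS-ey wing minus Uey antennal ranged from -0.498 to 0.0492. The cause was not tested. The replicate block changed no gl call (eye minus wild-type antennal 5.23, against 5.16 without it).

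With the phe covariate (the signal of the phe control probe sets) these signs turned: ey in wing (-0.075) and antennal discs (0.0766), chp in antennal discs (0.26), and sv (-0.20) and so (0.12) in ato-mutant against UAS-ey leg discs. Leaving out 1 array each, chp in antennal discs ranged from -0.323 to 0.0105, so from -0.371 to 0.274 and elav from -0.309 to 0.0482 in ato-mutant against UAS-ey leg discs, and ato from -0.926 to 0.230 in ato-mutant against wild-type leg discs. Of 648 values of the named genes' changes under other settings, 569 kept their direction and call.

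Numbers of called probe sets moved by over 1.5 times in 20 of 90 such values. With only the 2 groups, the leg comparison had 2268 in place of 3632, wing 138 in place of 999, antennal 4114 in place of 2160, ato-mutant against UAS-ey leg 1969 in place of 4415 and against wild-type leg 1320 in place of 3968, eye against leg 1989 in place of 3068, eye against wing 2524 in place of 5547, and UAS-ey leg against UAS-ey wing 2698 in place of 4241. With the phe covariate, leg had 561, ato-mutant against UAS-ey leg 311, eye against leg 800, eye against wing 1034, UAS-ey wing against eye 970 (main 6676), UAS-ey leg against UAS-ey wing 158 and UAS-ey wing against Uey antennal 215 (main 4707). With centred medians, wing had 625, eye against wing 10422, UAS-ey wing against eye 11941, UAS-ey leg against UAS-ey wing 10821 and UAS-ey wing against Uey antennal 11963. Without wild-type wing replicate 2, eye against wing had 3654, and without UAS-ey leg replicate 2, UAS-ey leg against Uey antennal had 816 in place of 1264. Centring and quantile normalization also moved the share of calls that were higher. In ato-mutant against UAS-ey leg discs it was 61.6% as deposited, 31.1% with centred medians and 32.2% after quantile normalization. Against wild-type leg discs these shares were 58.0%, 37.3% and 36.1%, for eye against leg 40.4%, 53.3% and 50.4%, for eye against wing 32.1%, 80.4% and 48.3%, for UAS-ey wing against eye 64.9%, 20.3% and 46.5%, for UAS-ey leg against UAS-ey wing 32.8%, 82.0% and 57.5%, and for UAS-ey wing against Uey antennal 66.8%, 16.8% and 44.8%. Centring moved the median probe set, which was at 0 as deposited, to -0.13 in ato-mutant against UAS-ey leg, 0.16 in eye against wing, -0.18 in UAS-ey wing against eye, 0.16 in UAS-ey leg against UAS-ey wing and -0.20 in UAS-ey wing against Uey antennal discs. Of the 10 genes most like gl, 3 stayed among the first 10 by Spearman correlation and 5 without the eye discs.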
